A study of Mus musculus with 37 samples.

Results

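Kit+Sca-1+Lin- (KSL) bone marrow cells of mice that lack the Rb family were compared here with wildtype KSL cells of the same strain label. The comparison was defined by its labels, with earlier results of these data known. It holds 4 of the 37 runs of the series, 2 from the mutants and 2 from wildtype mice. In each run 459 microRNA (miRNA) assays were read by TaqMan quantitative PCR on 20 to 1000 sorted cells, and the number of cells in a given run is not stated in the labels. KSL-RbTKO denotes the triple knockout runs (replicates 1 and 2, genotype Rb family triple knockout, strain Mixed 129Sv/J:C57Bl6). KSL-Mixed denotes the wildtype runs with that strain label (replicates 4 and 5). The labels used here name no deleted allele, Cre driver or age and do not say whether a run came from a single animal or a pool, so p-values measure only the spread between these runs, which may be technical. Further KSL groups serve for 1 comparison, 3 KSL-ETO runs (genotype AML-ETO9a, C57/Bl6) and 3 KSL-B6 runs (wildtype, C57/Bl6).

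The Rb family consists of the retinoblastoma protein and its relatives p107 and p130. These proteins bind E2F transcription factors and hold back the genes of S phase entry, and their combined loss in blood stem and progenitor cells is known for increased cycling. The KSL gate holds the blood stem cells of the marrow together with multipotent progenitors. Among miRNAs, the miR-17-92 and miR-106b-25 clusters are known E2F targets, the miR-196 and miR-10 genes lie inside the Hox gene clusters and are expressed with them in blood progenitors, and let-7 miRNAs are known to restrain growth genes.

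The sequences that carry the comparison are given first, because assays for miRNAs with the same seed gave unlike values. Differences between assays were not tested, and 2 assays of the same miRNA also gave unlike values, as described below. They are RefSeq mature sequences on GRCm38.p6, 5′ to 3′, with the seed (bases 2 to 8) in capitals. In the Hox clusters, miR-196b (chr6:52230129-52230150, minus strand) and miR-196a (copies at chr11:96265187-96265208 and chr15:102973365-102973386, both plus strand) share the seed AGGUAGU, and miR-10a (chr11:96317186-96317208, plus strand) has its own.
miR-196b: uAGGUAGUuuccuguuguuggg
miR-196a: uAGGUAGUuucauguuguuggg
miR-10a: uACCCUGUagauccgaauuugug
From the E2F-linked clusters, members of 3 seeds are shown. AAAGUGC is shared by miR-93 (chr5:138165574-138165596, minus strand), miR-106b (chr5:138165787-138165807, minus strand), miR-20a (chr14:115044183-115044205, plus strand) and miR-106a (chrX:52742541-52742563, minus strand).
miR-93: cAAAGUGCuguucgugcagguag
miR-106b: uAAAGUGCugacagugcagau
miR-20a: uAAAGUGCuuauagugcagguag
miR-106a: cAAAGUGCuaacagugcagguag
miR-19a (chr14:115044048-115044070, plus strand) and miR-19b (copies at chr14:115044358-115044380 and chrX:52741991-52742013) share GUGCAAA, and miR-25 (chr5:138165332-138165353, minus strand) and miR-92a (copies at chr14:115044476-115044496 and chrX:52741854-52741874) share AUUGCAC.
miR-19a: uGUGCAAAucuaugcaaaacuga
miR-19b: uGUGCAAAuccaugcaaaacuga
miR-25: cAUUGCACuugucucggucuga
miR-92a: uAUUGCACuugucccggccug
The assays named miR-20 and miR-92 on the panel are read here as miR-20a and miR-92a. let-7b (chr15:85707325-85707346, plus strand), let-7c (copies at chr15:85706616-85706637 and chr16:77599672-77599693), let-7g (chr9:106178846-106178867, plus strand) and let-7i (chr10:122985698-122985719, minus strand) share GAGGUAG, and the miR-29 members share AGCACCA.
let-7b: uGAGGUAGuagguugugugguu
let-7c: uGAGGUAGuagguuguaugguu
let-7g: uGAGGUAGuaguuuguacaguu
let-7i: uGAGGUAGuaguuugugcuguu
miR-29a: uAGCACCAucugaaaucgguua
miR-29b: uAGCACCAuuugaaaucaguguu
miR-29c: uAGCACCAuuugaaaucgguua

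Values are threshold cycles (Ct). A lower Ct means more RNA, 1 cycle is 1 log2 unit at full PCR efficiency, and an assay counts as detected below Ct 35, with 40 standing for no amplification. KSL-RbTKO runs detected 61 and 65 assays, against 98 and 102 in KSL-Mixed runs. The mean difference was -37 assays, with an exact two-sided permutation p of 0.333, which is the smallest that 2 runs against 2 can give. All other groups of the series detected between 65 and 143 assays per run, so a KSL-RbTKO run had the lowest number of all 37. Of the 459 assays, 54 were detected in all 4 runs, 27 in both KSL-Mixed runs and neither KSL-RbTKO run, and 0 in both KSL-RbTKO runs and neither KSL-Mixed run. Over the 54 common assays the mean Ct was 30.44 and 30.05 in KSL-RbTKO runs, against 28.17 and 27.90 in KSL-Mixed runs, a difference of 2.21 cycles or 4.63-fold. Fewer cells in the tube and less miRNA per cell cannot be told apart in these runs.

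The difference in Ct was not the same for every assay. Over the 54 common assays it ran between -0.7 and 6.1 cycles (KSL-RbTKO minus KSL-Mixed), with 30 assays over 2 cycles and 17 within 1 cycle of equal. By blocks of 96 wells in the files' order, the mean difference was 2.88 cycles over 25 assays in block 1, 2.37 over 10 in block 2, 1.82 over 3 in block 3, 1.15 over 8 in block 4 and 1.13 over 8 in block 5. Centring within each block kept 8 of the 15 rises and 13 of the 25 falls described below. The replicates also spread unequally. KSL-RbTKO replicates differed from each other with an SD of 1.02 cycles over 57 assays and by up to 3 cycles, against an SD of 0.638 over 91 assays and up to 2.1 cycles in KSL-Mixed.

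**Figure D1:**
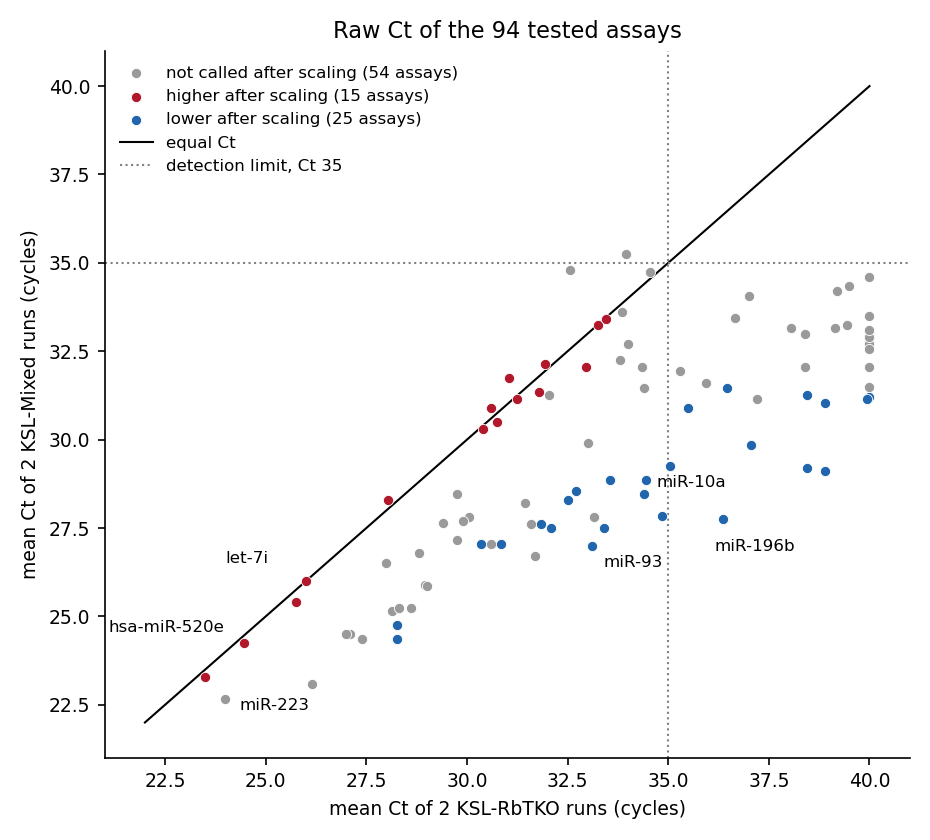
Mean Ct of the 2 KSL-RbTKO runs (x axis, cycles) against the mean Ct of the 2 KSL-Mixed runs (y axis, cycles) for the 94 tested assays, coloured by the call after scaling. The 15 assays called higher lie on or near the line of equal Ct, within 1 cycle of it, and the 25 called lower lie between 3.3 and 9.8 cycles below it.

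Because the runs differ in total signal, the comparison was made on 2 scales. The unscaled level is the Ct turned in sign and capped at 35. The scaled level is a run's mean Ct over the 54 common assays minus the assay's Ct, with all levels under the common floor of -4.56 set to that floor. A difference is a bound where a whole group lies at the floor. In 5 of the falls called after scaling (miR-10a, miR-19a, miR-25, miR-130aN and mmu-miR-106a) 1 KSL-RbTKO run does. There the size of the fall is understated and so may be its SE, except for miR-19a. Its run at Ct 35 sits just at the floor, and the difference is -3.39 with or without the floor. An assay was tested if both runs of at least 1 group detected it, which left 94. With limma's moderated two-sided test and Benjamini-Hochberg adjustment at 0.05 over these, 61 assays (64.9%) fell without scaling and 0 rose, and at an unadjusted p under 0.05 the counts were 66 and 0. After scaling, 25 assays (26.6%) were called lower and 15 (16.0%) higher, together 40 (42.6%), and the groups did not overlap for 68 (72.3%). The median difference over the 94 assays was -0.34 log2 units scaled and -2.48 unscaled. All 25 scaled falls were also called lower without scaling. The filter favours falls on both scales, as 27 of the 94 assays were detected in both KSL-Mixed runs and neither KSL-RbTKO run. A further 10 were detected in both KSL-Mixed runs and 1 KSL-RbTKO run, against 3 tested through KSL-RbTKO alone. Of the 25 falls, 11 were in assays detected in every run, as were all 15 rises.

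The falls and the rises rest on scaling and on single libraries to different degrees. Centring on the median of the common assays called 20 higher and 12 lower, and centring each run on its own detected assays called 2 higher and 49 lower. Centring on the 8 common assays of the blood lists called 0 assays, with 27 at an unadjusted p under 0.05. Centring within each 96-well block called 8 higher and 17 lower. Without KSL-RbTKO replicate 1 the scaled calls numbered 25 (13 higher, 12 lower), and without KSL-RbTKO replicate 2 they numbered 26 (12 higher, 14 lower). Without KSL-Mixed replicate 4 they numbered 18 (1 higher, 17 lower), and without KSL-Mixed replicate 5 they numbered 0, with 24 at an unadjusted p under 0.05. In these fits the lone run is assumed to vary like the other group's runs. Unscaled falls numbered 46 and 50 without KSL-RbTKO replicate 1 or 2, and 45 and 40 without KSL-Mixed replicate 4 or 5.

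**Figure D2:**
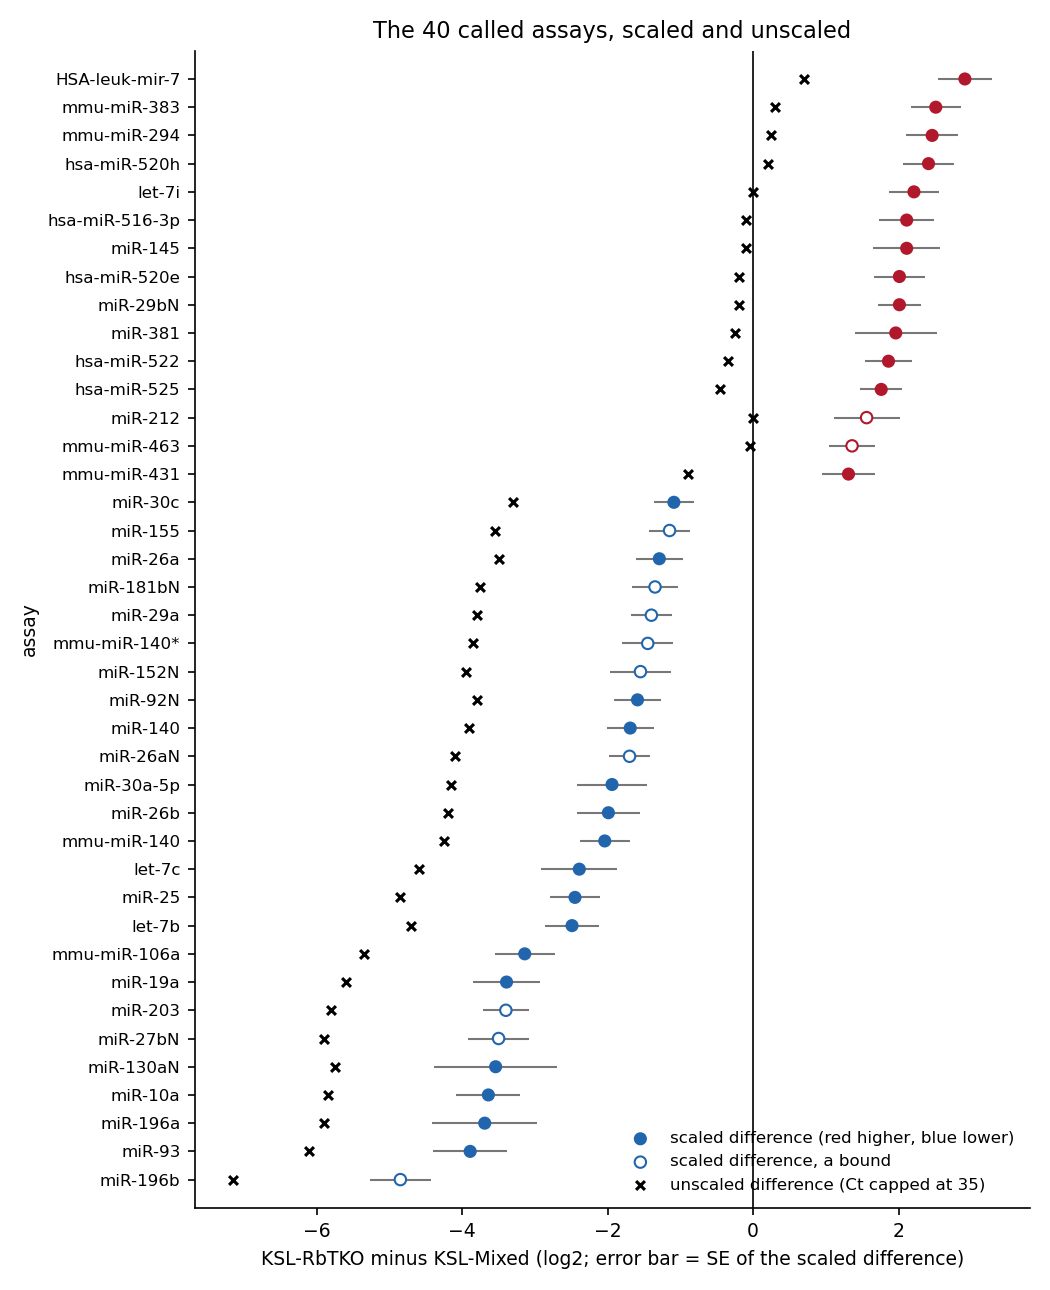
Scaled difference (circles, log2, KSL-RbTKO minus KSL-Mixed, bars are SE) and unscaled difference (crosses, Ct capped at 35) of the 40 called assays. Open circles are bounds because a whole group lay at the floor, and 5 filled circles (miR-10a, miR-19a, miR-25, miR-130aN and mmu-miR-106a) have 1 run at the floor. The crosses of the 15 higher assays lie between -0.90 and 0.70, around 0, and those of the 25 lower assays all lie well below 0.

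The Hox-cluster miRNAs were among the deepest falls. The list has 5 assays, 3 were tested, and all 3 fell on both scales, beside 26.6% of all tested assays scaled and 64.9% unscaled. Their median scaled difference was -3.69 against -0.34 over all tested assays. miR-196b and miR-10a were tested only because both KSL-Mixed runs detected them, a filter that favours falls. miR-196a was detected in every run. miR-196b, from the Hoxa cluster, had Ct 37.9 and 34.8 in KSL-RbTKO runs, against 27.4 and 28.1 in KSL-Mixed runs. Its scaled difference was -4.85 ± 0.42 (SE) or lower, because both KSL-RbTKO runs lay at the floor (limma, adjusted p = 0.00979). miR-196a, from the Hoxb and Hoxc clusters, had Ct 34.5 and 32.3 in KSL-RbTKO runs, against 27.2 and 27.8 in KSL-Mixed runs, and a scaled difference of -3.69 ± 0.72 (limma, adjusted p = 0.0198). miR-10a, from the Hoxb cluster, had Ct 35.2 and 33.6 in KSL-RbTKO runs, against 28.5 and 28.4 in KSL-Mixed runs, and a scaled difference of -3.64 ± 0.44 (limma, adjusted p = 0.0109). For all 3, both KSL-RbTKO runs lay several cycles above both KSL-Mixed runs. miR-196b, miR-93 and miR-10a were also the markers set for KSL cells. All 3 are among the 10 largest falls of this comparison, so their detection is not a separate check of it. KSL-RbTKO detected miR-196b and miR-10a in 1 of 2 runs each and miR-93 in 2 of 2, while KSL-Mixed and KSL-B6 detected all 3 markers in every run. KSL-ETO runs, with the same gate, detected miR-93 in 3 of 3 runs and miR-196b and miR-10a in 0 of 3. Myoblasts detected miR-196b in 4 of 4 runs and long-term stem cells, LT-HSC, in 0 of 4, so these markers do not identify the gate.

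The assays of the E2F-linked clusters were called in part, and differences between them were not tested. In the miR-106b-25 cluster, a single primary transcript inside the Mcm7 gene, 2 of 4 tested assays fell after scaling, beside 26.6% of all tested assays. miR-93 had Ct 32.7 and 33.5 in KSL-RbTKO runs, against 27.4 and 26.6 in KSL-Mixed runs, a scaled difference of -3.89 ± 0.51, or 14.8-fold (limma, adjusted p = 0.0109). miR-25 had Ct 34.4 and 39.7 in KSL-RbTKO runs, against 30.1 and 29.6 in KSL-Mixed runs, a scaled difference of -2.45 ± 0.35 (limma, adjusted p = 0.0109). The KSL-RbTKO runs lay far from each other for miR-25, and both lay above both KSL-Mixed runs. With no common floor the difference for miR-25 was -4.99 and was not called (limma, adjusted p = 0.0521).

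miR-106b, encoded next to miR-93 on that transcript and with the same seed, had Ct 29.6 and 29.9 in KSL-RbTKO runs, against 28.9 and 28 in KSL-Mixed runs. Its scaled difference of 0.91 ± 0.41 did not pass the test (adjusted p = 0.137), nor did its unscaled difference of -1.30 (adjusted p = 0.0583), so its sign depends on the scaling. A second miR-93 assay, mmu-miR-93, had Ct 40 in both KSL-RbTKO runs, against 33.6 and 31.5 in KSL-Mixed runs, with 3 of these 4 runs at the floor, and gave -0.48 ± 0.42 (adjusted p = 0.409). With no common floor it gave -5.24 (limma, adjusted p = 0.00360). In the miR-17-92 cluster, on chromosome 14, 6 of 9 assays were tested, 2 fell after scaling (beside 26.6% of all), 0 rose, and 5 fell unscaled (beside 64.9%), with a median scaled difference of -0.84. miR-19a had Ct 35 and 33.9 in KSL-RbTKO runs, against 29.4 and 28.3 in KSL-Mixed runs, a scaled difference of -3.39 ± 0.46 (limma, adjusted p = 0.0109).

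miR-19b, with the seed of miR-19a and a nearly equal sequence, had the lowest Ct of these assays in KSL-Mixed runs. It had Ct 26.3 and 26.0 in KSL-RbTKO runs, against 23.5 and 22.7 in KSL-Mixed runs, a raw difference of 3.05 cycles and a scaled difference of -0.84 ± 0.33 (adjusted p = 0.101). miR-20 had Ct 27.4 in both KSL-RbTKO runs, against 24.7 and 24 in KSL-Mixed runs, again -0.84 ± 0.34 after scaling (adjusted p = 0.103). Both passed the unscaled test, with adjusted p of 0.00538 for miR-19b and 0.00432 for miR-20 by limma. miR-92 gave a scaled difference of -0.39 ± 0.35 (adjusted p = 0.421), while its second assay, miR-92N, fell by 1.59 on the log2 scale with an SE of 0.32 (limma, adjusted p = 0.0203). miR-18 had Ct 34.7 and 32.9 in KSL-RbTKO runs, against 32.3 and 32.2 in KSL-Mixed runs, and passed neither test. From the miR-106a-363 cluster on the X chromosome, mmu-miR-106a had Ct 35.9 and 34.2 in KSL-RbTKO runs, against 29.8 and 28.7 in KSL-Mixed runs, a scaled difference of -3.14 ± 0.42 (limma, adjusted p = 0.0109). The second assay, miR-106a, lay at the floor in all 4 runs, and gave -2.94 with no common floor (limma, adjusted p = 0.0133). Of the 6 tested assays for the printed miRNAs with the AAAGUGC seed, 2 fell after scaling, miR-93 and mmu-miR-106a, near the 26.6% of all tested assays. The other assays, miR-20, miR-106b, mmu-miR-93 and miR-106a, were not called.

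**Figure D3:**
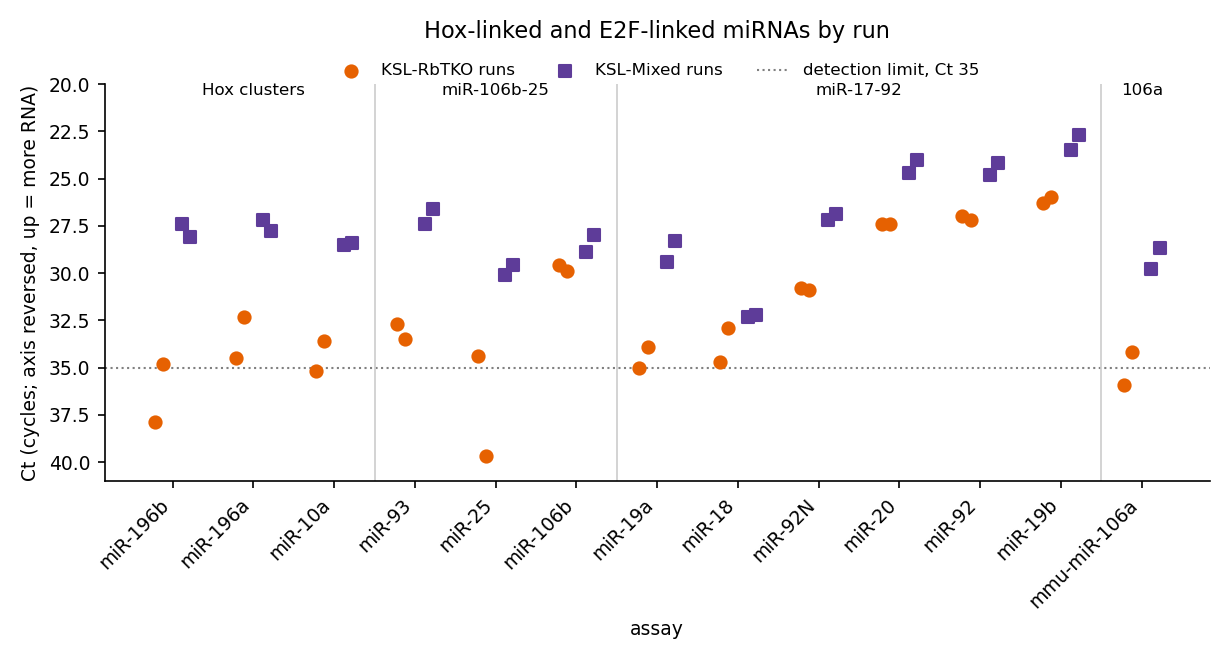
Ct of each KSL-RbTKO run (circles) and KSL-Mixed run (squares) for Hox-linked and E2F-linked assays, on a reversed axis so that more RNA is up. The KSL-RbTKO runs lie below both KSL-Mixed runs for every assay drawn, with a raw gap of 1.3 cycles for miR-106b and 6.1 cycles for miR-93.

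The other cell cycle lists showed no scaled calls. Their counts stand beside 26.6% of all tested assays lower after scaling and 64.9% unscaled. In the miR-15 and miR-16 family, known to restrain cyclins, 2 of 8 assays were tested and 0 were called after scaling, while both fell unscaled. miR-16 had Ct 29.9 and 30.2 in KSL-RbTKO runs, against 28.1 and 27.5 in KSL-Mixed runs, and a scaled difference of -0.04 ± 0.37 (adjusted p = 1). The pair miR-221 and miR-222, known to repress the cell cycle inhibitor p27, was likewise called unscaled (2 of 2) and not scaled (0 of 2). mmu-miR-221 had Ct 28.5 and 28.1 in KSL-RbTKO runs, against 25.5 and 25 in KSL-Mixed runs, and a scaled difference of -0.84 ± 0.29 (adjusted p = 0.0753). miR-222 gave -0.29 ± 0.38 after scaling (adjusted p = 0.6). None of the 8 assays of the p53-linked miR-34 and miR-449 family was tested, since no group had both runs below Ct 35.

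The let-7 family was called in both directions after scaling. Of 10 assays 5 were tested, of which 2 fell, 1 was called higher and 1 was at the floor in all runs after scaling, and 3 fell unscaled. Over all tested assays 26.6% fell and 16.0% rose after scaling, and 64.9% fell unscaled, so these counts lie near those shares. let-7b had Ct 34.1 and 33.0 in KSL-RbTKO runs, against 29.1 and 28.6 in KSL-Mixed runs, a scaled difference of -2.49 ± 0.37 (limma, adjusted p = 0.0109). let-7c had Ct 32.9 and 31.3 in KSL-RbTKO runs, against 27.9 and 27.1 in KSL-Mixed runs, a scaled difference of -2.39 ± 0.52 (limma, adjusted p = 0.0255). let-7g had Ct 40 in both KSL-RbTKO runs, against 33.5 and 32.5 in KSL-Mixed runs, which is at the floor after scaling. For these 3 members the groups did not overlap in raw Ct. let-7i had Ct 25.9 and 26.1 in KSL-RbTKO runs, against 26.1 and 25.9 in KSL-Mixed runs, the same values in both groups. Its scaled difference was therefore the full shift of the scaling, 2.21 ± 0.34 (limma, adjusted p = 0.0111), and its unscaled difference was 0. let-7i read Ct 26.1 to 26.3 in the KSL-ETO runs and 26.2 to 26.6 in the KSL-B6 runs as well. mmu-let-7f had Ct 31.6 and 32.5 in KSL-RbTKO runs, against 31.4 and 31.1 in KSL-Mixed runs, and passed neither test.

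The miR-29 family, known for targets among collagens and DNA methyltransferases, was also called in both directions after scaling. miR-29a had Ct 40 in both KSL-RbTKO runs, against 31.3 and 31.1 in KSL-Mixed runs, a scaled difference of -1.40 ± 0.28 or lower (limma, adjusted p = 0.02). miR-29c had Ct 32.7 and 30.5 in KSL-RbTKO runs, against 27.8 and 27.4 in KSL-Mixed runs, a scaled difference of -1.79 ± 0.66 that did not pass (adjusted p = 0.0909) and an unscaled one that did (limma, adjusted p = 0.0175). The miR-29bN assay had Ct 23.6 and 23.4 in KSL-RbTKO runs, against 23.3 and 23.3 in KSL-Mixed runs. It was called higher after scaling, 2.01 ± 0.30 (limma, adjusted p = 0.0109), with an unscaled difference of -0.20 (adjusted p = 0.59). It read Ct 22.6 to 22.7 in the KSL-ETO runs and 22.8 to 23.1 in the KSL-B6 runs as well. The assays miR-29b and hsa-miR-29a read Ct 40 in every KSL-RbTKO and KSL-Mixed run, so the rise rests on the miR-29bN assay alone. RefSeq places copies of miR-29b beside miR-29a on chromosome 6 (chr6:31063025-31063047 and chr6:31062673-31062694, minus strand) and beside miR-29c on chromosome 1 (chr1:195037091-195037113 and chr1:195037600-195037621, plus strand).

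All 15 assays called higher after scaling had a nearly equal raw Ct in both groups. Each was detected in all 4 runs, and the raw differences lay between -0.7 and 0.9 cycles, where a raw difference of 0 is a scaled difference of 2.21 by construction unless a run lies at the floor. Of the 15, 5 belong to the primate chromosome 19 cluster, whose miRNAs are not encoded in the mouse genome. hsa-miR-520e had Ct 24.5 and 24.4 in KSL-RbTKO runs, against 24.1 and 24.4 in KSL-Mixed runs, and hsa-miR-520h had Ct 31.8 and 32.1 in KSL-RbTKO runs, against 32.3 and 32 in KSL-Mixed runs. hsa-miR-516-3p had Ct 30.2 and 30.6 in KSL-RbTKO runs, against 30.5 and 30.1 in KSL-Mixed runs. In each of these the groups met or overlapped in raw Ct, and the scaled differences were 2.01 ± 0.35, 2.41 ± 0.36 and 2.11 ± 0.38. The list has 37 assays, of which KSL-RbTKO runs detected 5 and 6 and KSL-Mixed runs detected 5. All 5 tested members were called higher after scaling (beside 16.0% of all tested assays) and 0 of 5 in either direction unscaled. What these assays detect in mouse cells was not tested.

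Of the other 10 higher assays, 6 belong to 1 of the lists and 4 to none. HSA-leuk-mir-7, which the files do not annotate further, had Ct 31 and 31.1 in KSL-RbTKO runs, against 31.6 and 31.9 in KSL-Mixed runs. It had the largest scaled rise, 2.91 ± 0.37 (limma, adjusted p = 0.0109), and both KSL-RbTKO runs lay below both KSL-Mixed runs, while its unscaled difference of 0.70 did not pass (adjusted p = 0.107). mmu-miR-383 had Ct 30.6 in both KSL-RbTKO runs, against 30.8 and 31 in KSL-Mixed runs, a scaled difference of 2.51 ± 0.34 (limma, adjusted p = 0.0109). mmu-miR-294, an embryonic stem cell miRNA, had Ct 27.9 and 28.2 in KSL-RbTKO runs, against 28.4 and 28.2 in KSL-Mixed runs, a scaled difference of 2.46 ± 0.36 (limma, adjusted p = 0.0109). It read Ct 28.2 to 28.6 in KSL-ETO and 28.1 to 29.0 in KSL-B6 runs, again near the same cycle in every KSL group. Of the 16 assays for embryonic stem cell clusters, KSL-RbTKO runs detected 2 and 3, and KSL-Mixed runs 2. miR-381, from the imprinted Dlk1-Dio3 locus, had Ct 30.2 and 31.3 in KSL-RbTKO runs, against 30.7 and 30.3 in KSL-Mixed runs, and a scaled difference of 1.96 ± 0.57 (limma, adjusted p = 0.0499). Of that locus, 2 of 43 assays were tested, and both were called higher after scaling (beside 16.0% of all tested assays) and neither unscaled.

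**Figure D4:**
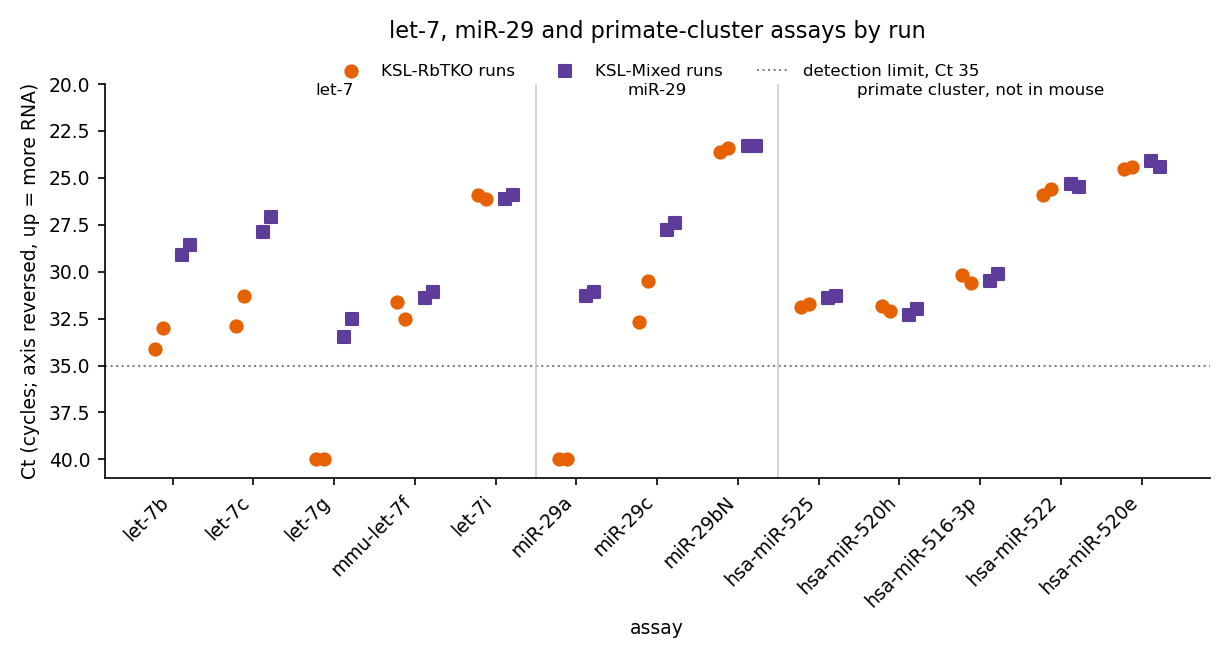
Ct of each KSL-RbTKO run (circles) and KSL-Mixed run (squares) for let-7, miR-29 and primate-cluster assays, on a reversed axis so that more RNA is up. let-7b, let-7c, let-7g, miR-29a and miR-29c separate the groups, while let-7i, miR-29bN and the 5 primate-cluster assays read nearly the same Ct in all 4 runs.

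Of the miRNAs known from blood stem cells, fewer were detected in KSL-RbTKO runs, as over all 459 assays (61 and 65, against 98 and 102). Of 18 assays on that list, KSL-RbTKO runs detected 3 and 6, against 12 and 13 in KSL-Mixed runs. Of the 12 tested, 4 fell after scaling (beside 26.6% of all), 2 lay at the floor throughout, 0 rose, and 11 fell unscaled (beside 64.9%), with a median scaled difference of -1.09. The 4 scaled falls were those of miR-29a, miR-130aN, miR-155 and miR-196b. Each was tested only because both KSL-Mixed runs detected it, a filter that favours falls. miR-126, miR-146 and mmu-miR-155 were detected in every run, and none of them was called after scaling. The exception to the unscaled falls was miR-146, a brake on inflammatory signalling, with Ct 31.3 and 28.5 in KSL-RbTKO runs, against 27.5 and 27.9 in KSL-Mixed runs. It gave 0.01 ± 0.88 after scaling (adjusted p = 1) and -2.20 unscaled (adjusted p = 0.136). miR-130aN had Ct 37.5 and 32.2 in KSL-RbTKO runs, against 27.9 and 27.8 in KSL-Mixed runs, a scaled difference of -3.54 ± 0.85 (limma, adjusted p = 0.0313). miR-126, a stem cell quiescence regulator that endothelial cells also express, had Ct 33.2 and 30.2 in KSL-RbTKO runs, against 26.5 and 26.9 in KSL-Mixed runs, a scaled difference of -2.79 ± 0.94 (adjusted p = 0.0723). miR-125a, known to expand mouse stem cells when overexpressed, had Ct 35.2 and 31.1 in KSL-RbTKO runs, against 27.8 in both KSL-Mixed runs, a scaled difference of -3.04 ± 1.20 (adjusted p = 0.101). For these 3, replicate 1 of KSL-RbTKO lay 3 or more cycles above replicate 2, and both lay above both KSL-Mixed runs. Both miR-126 and miR-125a passed the unscaled test (limma, adjusted p = 0.0199 and 0.0333). miR-99a, miR-99b and miR-100 had Ct 40 in both KSL-RbTKO runs, against Ct between 32.4 and 33.9 in KSL-Mixed runs, which leaves them at or near the floor after scaling. The summed signal of the list (in units of the signal at Ct 35) was 25.7 to 156 in KSL-RbTKO runs, against 1007 to 1151 in KSL-Mixed runs. This sum is unscaled, and the shift over the common assays was 4.63-fold.

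The lists of mature blood markers share assays and were not tested against each other. Counts for these lists and the miR-181 family stand beside 26.6% of all tested assays lower after scaling and 64.9% unscaled. Their median scaled differences were -0.14 for the myeloid, -0.39 for the pan-blood and -1.04 for the lymphoid list, beside -0.34 over all tested assays. The myeloid median was set by miR-27a and mmu-miR-142-3p, at the floor in 3 and 4 runs. With no common floor they gave -4.99 and -3.19 (limma, adjusted p = 0.00360 and 0.00959). On the pan-blood list, miR-142-5p had Ct 40 in both KSL-RbTKO runs, against 32.1 and 30.9 in KSL-Mixed runs. It gave -1.10 ± 0.42 or lower (limma, adjusted p = 0.0941), and -6.29 with no common floor (limma, adjusted p = 0.00122). miR-223, the myeloid marker and the assay with the lowest Ct on the blood lists, had Ct 23.8 and 24.2 in KSL-RbTKO runs, against 23.2 and 22.1 in KSL-Mixed runs. Its scaled difference was 0.86 ± 0.47 (adjusted p = 0.2) and its unscaled one -1.35 (adjusted p = 0.0761). Of the 6 myeloid assays, KSL-RbTKO runs detected 2 and KSL-Mixed runs 4, and of the 4 tested 0 were called after scaling and 2 fell unscaled. miR-150, a lymphoid marker, had Ct 29.5 and 28.1 in KSL-RbTKO runs, against 26.8 in both KSL-Mixed runs, a scaled difference of 0.21 ± 0.44 (adjusted p = 0.783). miR-155 had Ct 36.2 and 36.7 in KSL-RbTKO runs, against 31.7 and 31.2 in KSL-Mixed runs, a scaled difference of -1.15 ± 0.29 or lower (limma, adjusted p = 0.0344), and its second assay, mmu-miR-155, gave -1.04 ± 0.32 (adjusted p = 0.0558). miR-142-3p, made in all blood cells, gave -0.39 ± 0.33 after scaling (adjusted p = 0.396) and fell unscaled by 2.60 (limma, adjusted p = 0.00999). Neither of the 2 erythroid assays was detected in any of the 4 runs. In the miR-181 family, of 3 tested assays 1 fell after scaling and 3 unscaled. miR-181bN had Ct 40 and 36.9 in KSL-RbTKO runs, against 31.6 and 30.9 in KSL-Mixed runs, a scaled difference of -1.35 ± 0.31 or lower (limma, adjusted p = 0.0301). The other miR-181b assay, hsa-miR-181b, gave -0.79 ± 0.31 (adjusted p = 0.0995).

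Markers of other cell types were sparse in both groups. Of 7 mesenchymal assays each run detected 1, miR-145, with Ct 31.7 and 30.8 in KSL-RbTKO runs, against 30.8 and 31.5 in KSL-Mixed runs. It is among the 15 assays called higher after scaling, 2.11 ± 0.46 (limma, adjusted p = 0.0255), with overlapping raw Ct, and miR-143, miR-199a and miR-214 were not detected in any of the 4 runs. Of 13 epithelial assays, KSL-RbTKO runs detected 1, against 1 and 2 in KSL-Mixed runs. Their unscaled summed signal was 2.83 to 10.6 in KSL-RbTKO runs, against 52.0 to 68.9 in KSL-Mixed runs. In KSL-Mixed runs that list's signal was mostly miR-203, with Ct 39.9 and 37 in KSL-RbTKO runs, against 29.1 and 29.3 in KSL-Mixed runs, and its scaled difference was -3.40 ± 0.32 or lower (limma, adjusted p = 0.00979). In KSL-RbTKO runs miR-203 was not detected and the list's signal was that of miR-375, known from endocrine cells, with Ct 33.5 and 31.6 in KSL-RbTKO runs, against 31.8 and 37.8 in KSL-Mixed runs. It gave 1.79 ± 0.65 after scaling, with 1 KSL-Mixed run at the floor (adjusted p = 0.0870), and 0.85 unscaled (adjusted p = 0.616). The 4 muscle assays and the liver assay were not detected in any of these runs, and of 5 neural assays each run detected 1, miR-128a. The part of other cells in the results was not tested.

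Further families were called in part, and their counts stand beside 26.6% of all tested assays lower after scaling and 64.9% unscaled. In the miR-26 family, linked to growth restraint, 3 of 4 tested assays fell after scaling and 4 unscaled. miR-26b had Ct 33.2 and 31.8 in KSL-RbTKO runs, against 28.4 and 28.2 in KSL-Mixed runs, a scaled difference of -1.99 ± 0.44 (limma, adjusted p = 0.0255). miR-26a had Ct 28.7 and 27.8 in KSL-RbTKO runs, against 24.9 and 24.6 in KSL-Mixed runs, a scaled difference of -1.29 ± 0.33 (limma, adjusted p = 0.0347), and its second assay, miR-26aN, gave -1.70 ± 0.28 or lower (limma, adjusted p = 0.013). In the miR-30 family 2 of 6 tested assays fell after scaling. miR-30a-5p had Ct 32.3 and 33.1 in KSL-RbTKO runs, against 28.6 and 28.5 in KSL-Mixed runs, a scaled difference of -1.94 ± 0.48 (limma, adjusted p = 0.0344), and miR-30c gave -1.09 ± 0.28 (limma, adjusted p = 0.0358). miR-30e gave 0.46 ± 0.31 (adjusted p = 0.299). In the miR-23, miR-27 and miR-24 clusters 1 of 5 tested assays fell after scaling and 4 unscaled. miR-27bN had Ct 38.8 and 39.0 in KSL-RbTKO runs, against 29.7 and 28.5 in KSL-Mixed runs, a scaled difference of -3.50 ± 0.42 or lower (limma, adjusted p = 0.0109). The other miR-27b assay had Ct 34.4 and 40 in KSL-RbTKO runs, against 31.4 and 30.9 in KSL-Mixed runs, and gave -1.15 ± 0.35 (adjusted p = 0.0558). miR-24 had Ct 29.1 and 28.1 in KSL-RbTKO runs, against 25.5 and 25 in KSL-Mixed runs, and gave -1.14 ± 0.35 (adjusted p = 0.0579). miR-152N, the only tested member of the miR-148 and miR-152 family, gave -1.55 ± 0.42 or lower (limma, adjusted p = 0.0434).

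For 11 miRNAs a pair of assays on the panel were both tested. Pairs with an untested assay are left out and were not compared. Among these, miR-29b, hsa-miR-29a, miR-221, miR-130a and mmu-miR-203 were not detected in any KSL-RbTKO or KSL-Mixed run. Their partners miR-29bN, miR-29a, mmu-miR-221, miR-130aN and miR-203 are described above. In 3 pairs (miR-106a, miR-142-3p and miR-30a-5p) an assay lay at the floor in all runs, so its sign could not be compared. In 0 of the other pairs did the scaled differences have opposite signs, and in 2 pairs, those of miR-140 and miR-26a, both assays were called lower. The assays of miR-140 gave -1.69 and -2.04. The largest gap was 3.41 log2 units, for the miR-93 pair described above, in which mmu-miR-93 lay at the floor in KSL-RbTKO runs and close to it in KSL-Mixed runs.

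To ask where KSL-RbTKO differs from another mutant with the same gate, the change between KSL-RbTKO and KSL-Mixed was set against the change between KSL-ETO and KSL-B6, which share no run with it. KSL-ETO cells carry AML-ETO9a, a leukaemia fusion product. Over the 50 assays common to these 10 runs and 127 tested, the difference of the changes was called for 72 (56.7%). It was positive (KSL-RbTKO minus KSL-ETO) for 29 (22.8%) and negative for 43 (33.9%). Some calls restate 1 change alone, because all runs of the other comparison lay at the floor. For miR-99a, called positive, the mean Ct was 40 in both mutants. For miR-186 the KSL-RbTKO change was set to 0, with mean Ct 39.15 in KSL-RbTKO and 33.15 in KSL-Mixed. For mmu-miR-463 all KSL-ETO and KSL-B6 runs lay at the floor. mmu-miR-221 changed by -0.81 ± 0.56 in KSL-RbTKO and by -7.32 ± 0.46 in KSL-ETO, a difference of 6.51 ± 0.73 (limma, adjusted p = 0.000107), with 2 of 3 KSL-ETO runs at the floor. miR-222 gave changes of -0.26 ± 0.40 in KSL-RbTKO and -6.42 ± 0.33 in KSL-ETO. miR-223 changed by 0.89 ± 0.34 in KSL-RbTKO and by -2.86 ± 0.27 in KSL-ETO, a difference of 3.74 ± 0.43 (limma, adjusted p = 0.000114), and hsa-miR-181b differed by 3.49 ± 0.24 (limma, adjusted p = 6.21e-06). For hsa-miR-181b the changes were -0.76 ± 0.18 in KSL-RbTKO and -4.26 ± 0.15 in KSL-ETO. None of these 4 assays was called in KSL-RbTKO after scaling, while mmu-miR-221, miR-222 and hsa-miR-181b fell there unscaled and the second miR-181b assay, miR-181bN, fell on both scales.

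In the other direction, the deepest differences were those of the miR-31 assays, -6.54 ± 0.22 for hsa-miR-31 and -6.01 ± 0.19 for miR-31. All KSL-RbTKO and KSL-Mixed runs lay at the floor for both, so these values are the change in KSL-ETO, where the mean Ct was 22.6 and 24.2, against 28.2 and 29.3 in KSL-B6. Among assays whose scaled levels did not overlap between KSL-RbTKO and KSL-Mixed, hsa-miR-146b changed by -0.91 ± 0.29 in KSL-RbTKO and by 3.28 ± 0.24 in KSL-ETO, a difference of -4.19 ± 0.37 (limma, adjusted p = 2.72e-05). miR-24 changed by -1.11 ± 0.23 in KSL-RbTKO and by 3.04 ± 0.19 in KSL-ETO, a difference of -4.16 ± 0.30 (limma, adjusted p = 7.8e-06). miR-26b differed by -3.24 ± 0.37, and miR-27bN and miR-152N, at the floor in KSL-RbTKO runs, by -4.09 ± 0.33 and -3.74 ± 0.43 or lower. let-7b differed by -2.57 ± 0.29 and miR-93 by -2.64 ± 0.55 (limma, adjusted p = 0.000107 and 0.00321). The Hox-cluster miRNAs were low in both mutants. KSL-ETO runs had Ct 40 throughout for miR-196b, miR-196a and miR-10a, against mean Ct of 25.8, 25.1 and 26.8 in KSL-B6 runs. The difference of the changes was 2.30 ± 0.67 or higher for miR-196a (limma, adjusted p = 0.0172) while for miR-10a all KSL-ETO runs and 1 KSL-RbTKO run, and for miR-196b all runs of both mutants, lay at the floor, so the size of their differences is not measured.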

How the data were processed

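miRNAs of sorted cells were amplified and read with multiplexed TaqMan assays, per the labels' protocols. The deposited values are threshold cycles (Ct) with 1 decimal, which the authors list per assay and run. For software, threshold setting and normalization, the sources used here give nothing. The labels state 425 miRNAs and the files hold 459 assays with 457 names. Replicate 2 of KSL-RbTKO ends with a value that has no assay name and was dropped. The number of runs limits the precision.

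From the Ct values, scaled and unscaled levels were computed as described with the results. Tests used limma (3.58.1, under R 4.3.3, with jsonlite 2.0.0 for the labels) and Benjamini-Hochberg adjustment at 0.05 within each comparison. Values were rounded to 8 decimals, and assays constant over the runs were counted as not called (9 of 94). Where a group lies at the floor it has no spread of its own, so its SE is understated and the difference is a bound. Alternatives were detection limits of Ct 32 and 38, other centrings, no scaling, no floor, other filters, other controls and leaving out each run.

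The comparison, its lists and its members were chosen with earlier results of these data known. Named assays are the 10 largest scaled rises and falls whose groups do not overlap, up to 3 tested members of each list by adjusted p, second assays of named miRNAs, and the 5 largest called differences from KSL-ETO in each direction among assays whose groups do not overlap in the KSL-RbTKO comparison. Assays named beyond these, such as miR-20, miR-18, let-7g, miR-99a, miR-146 and miR-31, were chosen after their values were seen. Sequences and positions of 23 miRNA assays were matched by name to RefSeq (GRCm38.p6).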

Additional observations from a re-analysis of the deposited data

Results flagged for a closer look

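The changes of KSL-RbTKO against KSL-Mixed and of KSL-ETO against KSL-B6 differed, by a limma test of the difference itself, for 72 assays. The 72 include assays with all runs of 1 comparison at the floor, whose call rests on the other comparison alone. Named here are the 5 in each direction with the largest difference among assays whose scaled levels did not overlap between KSL-RbTKO and KSL-Mixed, which leaves out larger ones such as hsa-miR-31 (-6.54), miR-31 (-6.01) and miR-222 (6.16). The change in KSL-RbTKO minus that in KSL-ETO was positive for mmu-miR-221 (difference of the changes 6.51), miR-223 (3.74), hsa-miR-516-3p (3.56), hsa-miR-181b (3.49) and miR-181bN (2.60). For miR-181bN, all KSL-RbTKO and KSL-ETO runs lay at the floor, so the value rests on the controls and gives no order of the mutants. For hsa-miR-516-3p, an assay for a primate miRNA, Ct ran between 27 and 30.7 in KSL-B6 runs, and its adjusted p was 0.0453. It was negative for hsa-miR-146b (-4.19), miR-24 (-4.16), miR-27bN (-4.09), miR-152N (-3.74) and miR-26b (-3.24), with miR-27bN and miR-152N as upper bounds. No test of outlying runs applied, because each group holds 2 or 3 runs.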

How the results depend on the processing

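The scaled comparison gave 40 calls (15 higher, 25 lower). Higher calls numbered 8 at a detection limit of Ct 32, 8 when centred within 96-well blocks and 2 when centred on each run's own detected assays. Lower calls numbered 12 with centring on the median of common assays, 16 after quantile normalization, 49 with centring on each run's own detected assays, 40 with no common floor, 13 with only assays detected in all runs, 40 against all 5 KSL runs, and 54 of 71 calls against KSL-B6. With all 459 assays tested, which adds assays with no signal, 2 were called (0 higher, 2 lower), with 51 at an unadjusted p under 0.05. Without scaling 61 were called, 0 higher and 61 lower. Among settings chosen after seeing the data, block centring gave 25 calls and blood list centring 0 calls, 0 higher and 0 lower, with 27 at an unadjusted p under 0.05. Leaving out each run gave 0 to 26 calls, 0 to 13 higher and 0 to 17 lower with scaling. Without scaling, and without KSL-RbTKO replicate 1, KSL-RbTKO replicate 2, KSL-Mixed replicate 4 or KSL-Mixed replicate 5, lower calls numbered 46, 50, 45 and 40 and higher calls 0, 1, 1 and 1. The difference from KSL-ETO gave 72 calls (29 higher, 43 lower), 40 (12 higher, 28 lower) at Ct 32 and 59 to 77 when each run was left out. The difference in detected assays was -37, or -27 at Ct 32. Some settings change by construction how many assays are tested, 94 in the main comparison. These are the detection limits (62 at Ct 32), the filters (54 and 459), KSL-B6 as control (118) and leaving out some runs. Apart from that, the cause of these moves was not tested.

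Some named assays changed sign. Without scaling, miR-145 was -0.10, hsa-miR-516-3p -0.10, miR-29bN -0.20, hsa-miR-520e -0.20, miR-381 -0.25, miR-106b -1.30, miR-223 -1.35, miR-150 -2, miR-128a -0.25, mmu-miR-431 -0.90, miR-30e -1.75 and hsa-miR-525 -0.45. Centred on each run's own assays, miR-106b was -0.45, miR-223 -0.50, miR-150 -1.15, mmu-miR-431 -0.048 and miR-30e -0.90. Centred on blood lists, miR-19b was 0.11, miR-195 0.30, miR-16 0.91, mmu-miR-221 0.11, miR-222 0.66, hsa-miR-181b 0.16, miR-142-3p 0.56, miR-27b 0.23 and miR-92 0.56. Centred on the median, miR-16 was 0.70, miR-222 0.45, miR-142-3p 0.35 and miR-92 0.35, and within blocks miR-16 was 0.63, miR-142-3p 0.28 and miR-92 0.28. After quantile normalization, miR-195 was 0.24, miR-16 0.79, mmu-miR-155 0.13, miR-223 -0.42 and miR-142-3p 0.056. miR-16 was 0.17 when centred without the primate assays, 0.10 at Ct 38 and 0.33 with all groups in 1 fit, where miR-222 was 0.077. miR-150 was -0.066 at Ct 32, -0.41 against KSL-B6 and -0.13 against all 5 KSL runs. Over the left-out runs, miR-16 was between -0.30 and 0.35, miR-142-3p between -0.70 and 0.018, miR-222 between -0.45 and 0.15, and miR-150 between -0.25 and 0.97.

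The 10 largest falls kept their sign in all 18 or 19 alternatives run for each and passed the test in 10 to 15 of them. No paired analysis was possible because KSL-RbTKO replicates 1 and 2 and KSL-Mixed replicates 4 and 5 share no replicate number.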
